A study of Mus musculus with 2 samples.

Results

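The 8 genes described here, Prnp, Grn, Tmem106b, Sod1, Tardbp, Lrrk2, Park7 and Htt, are mouse orthologues of human genes tied to neurodegenerative diseases other than Alzheimer disease. They were chosen by symbol from the 55536 annotated genes of the deposited gene tables, and each symbol matched 1 gene identifier. The tissue was hippocampus (a layer of it, in the wording of the labels) from male mice of the strain 5xFAD/CAST, adults between 8 and 10 months old, and 300 ng of total RNA entered each library. There was 1 group of 2 libraries, biological replicates 1 and 2. They come from separate biosamples with 1 shared donor identifier, and nothing says that these are separate animals. SDs therefore measure only the spread between these libraries, which may be technical. The p-values set these libraries against counting error alone and measure no spread between libraries or animals. 5xFAD mice are known to carry human transgenes with mutations of familial Alzheimer disease under Thy1 promoter elements, which act in neurons, and the labels name a cross with Cast. Mice without the transgenes were not analysed here, so no value below compares disease with health. In bulk tissue, fewer cells of a type and less RNA per cell cannot be told apart.

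These diseases share the loss of neurons and the build-up of a misfolded protein, and most of the proteins involved are made by healthy neurons and glia throughout life. Prnp encodes the prion protein, a glycoprotein anchored on the cell surface. Grn encodes progranulin, a secreted and lysosomal protein, and Tmem106b a membrane protein of late endosomes and lysosomes, and both are tied to frontotemporal dementia. Sod1 encodes the cytosolic copper and zinc superoxide dismutase and Tardbp the RNA-binding protein TDP-43, both tied to amyotrophic lateral sclerosis (ALS). TDP-43 is known to limit the amount of its own messenger RNA. Lrrk2 encodes a large kinase that phosphorylates Rab GTPases and Park7 the oxidation-sensitive protein DJ-1, both tied to Parkinson disease. Htt encodes huntingtin, a very large scaffold protein in which an expanded run of glutamines causes Huntington disease.

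The repeats for which Prnp and Htt are known lie in their coding exons and are shown here because they lie within the transcripts, Prnp-201 and Htt-201, that held most reads of these genes. Sequences come from the GENCODE M21 transcripts, not from the reads, and positions are on mm10. Whether these 5xFAD/CAST mice carry the same repeats was not tested. The octapeptide repeat motif of the prion protein, as 24 bases of coding sequence in which the bases that vary among its codons were left free, was searched in frame on the coding strand of the leading coding transcript of 21211 genes. It was found 4 times in Prnp-201, next to each other, and in no other gene, so 1 of the 21211 sequences searched (0.00471%) held it. Since the motif is that of the prion protein, its presence in Prnp was given in advance. The units lie between chr2:131936604-131936627 and chr2:131936676-131936699 on the plus strand, and capitals mark the bases that differ from the first unit.
Unit 1: ccccacggtggtggctggggacaa
Unit 2: ccccaTggGggCAgctggggacaa
Unit 3: ccTcaTggtggtAgTtggggTcaG
Unit 4: ccccaTggCggtggAtggggCcaa
The longest in-frame run of the glutamine codons CAG and CAA was searched in the same transcripts, again on the coding strand alone. Htt-201 had a run of 7 glutamine codons, 6 CAG and 1 CAA, from codon 18 to codon 24, at chr5:34761949-34761987 with its flanks (plus strand). A run at least as long occurred in 0.641% of the genes searched, while the median gene had a longest run of 2. Tbp, which encodes the TATA-binding protein, held 13 glutamine codons (chr17:15504382-15504438, plus strand) and Atxn7 5 (chr14:14013147-14013179, plus strand), and capitals mark the runs.
Htt: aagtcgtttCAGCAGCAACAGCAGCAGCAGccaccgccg
Tbp: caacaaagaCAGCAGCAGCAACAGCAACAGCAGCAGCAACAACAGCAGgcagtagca
Atxn7: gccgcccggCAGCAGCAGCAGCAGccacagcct

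The libraries held 26128897 and 28689423 expected counts. On the CPM scale (counts divided by the library total) 1 count was worth 0.0383 and 0.0349, and the limit that a count of 0 allows, 3 counts, was 0.115 and 0.105. That limit covers the error of counting alone. Of 8 markers of excitatory hippocampal neurons, all were read in both libraries, with summed levels of 2485 TPM in replicate 1 and 2981 TPM in replicate 2. TPM is a level scaled for transcript length and library size. Markers of choroid plexus (8 of 8 higher in replicate 1, summed 1201 against 185 TPM) and of striatum (8 of 8 higher in replicate 1, summed 173 against 66.0 TPM) set the libraries apart, and none of either list was at 0. The 8 microglial markers summed to 640 and 624 TPM.

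All 8 genes reached a TPM of 1 in each library, as did 60.3% of 22015 protein-coding nuclear genes. Their median was 76.8 TPM in replicate 1 and 84.7 TPM in replicate 2 (80.7 ± 5.56, SD, n = 2), beside medians of 15.5 and 15.9 TPM over the 13281 protein-coding genes detected. The highest and the lowest gene lay 39.3-fold apart in replicate 1 and 48.3-fold apart in replicate 2.

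Prnp was the highest of the 8 genes. Its level was 417 in the first and 451 TPM in the second library (434 ± 24.2, SD, n = 2), on 15729 and 18125 expected counts. It ranked 75 and 72 among all protein-coding nuclear genes by TPM. The gene lies on chromosome 2 (131909928 to 131938429, plus strand), and 99.6 ± 0.226% of its TPM came from the coding transcript Prnp-201, which has 3 exons. The other annotated transcript, the 319-base Prnp-202, held 4.53 and 11.3 counts.

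The paralogs of Prnp were far lower or close to absent. Sprn, which encodes the neuronal protein shadoo, stood at 59.8 and 68.0 TPM, so Prnp exceeded it 6.81-fold (log2 ratio 2.77 ± 0.05, SD, n = 2). Prnd, which encodes doppel and is known for its role in the testis, had 1 and 3 counts. Prn, annotated from the Prnp start through Prnd as a readthrough gene of the same strand, had 0 counts in both libraries. Prnp and Prn share 46 stretches of 101 bases, 2.05% of those in Prnp, and the deposited posterior SD of the Prnp count was 0.11 and 0.13 counts. Other genes of the prion list were led by Rtn3 at 312 ± 15.0 TPM, an endoplasmic reticulum protein, Ncam1, a neural adhesion molecule, at 142 ± 1.84 TPM and Grm5, a metabotropic glutamate receptor, at 103 ± 4.99 TPM.

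Grn and Tmem106b, the pair of lysosomal genes, stood at about the same level. Grn, on chromosome 11 (102430315 to 102437048, plus strand), had 67.7 and 71.9 TPM (69.8 ± 2.93, SD, n = 2), and Tmem106b, on chromosome 6 (13069759 to 13089269, plus strand), had 66.7 and 76.7 TPM (71.7 ± 7.06). Grn was the higher in replicate 1 and Tmem106b in replicate 2, and the log2 ratio of Tmem106b over Grn, 0.04 ± 0.08, was smaller than its spread.

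Progranulin's receptor and partner were both higher than Grn itself. Sort1, which encodes the receptor sortilin that takes progranulin into cells, stood at 130 and 147 TPM, so the log2 ratio of Grn over Sort1 was -0.99 ± 0.06 (SD, n = 2). Psap, which encodes prosaposin, a partner that carries progranulin to lysosomes, stood at 701 and 690 TPM, and Grn over Psap was -3.32 ± 0.08 on the log2 scale. Psap led the lysosomal list, followed by the cathepsins Ctsd at 657 ± 10.7 and Ctsb at 302 ± 8.53 TPM. The lowest in that list was Slpi, which encodes a protease inhibitor that protects progranulin from cleavage, at 0.33 and 0.24 TPM on 3 and 2 counts. Of the 13 genes of that list other than the pair, 12 reached TPM of 1 in both libraries.

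Within its family, Tmem106b was the highest. Tmem106c stood at 16.7 and 17.9 TPM and Tmem106a at 1.58 and 1.96 TPM. Tmem106b exceeded Tmem106c by 2.05 ± 0.07 and Tmem106a by 5.34 ± 0.08 on the log2 scale (SD, n = 2).

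Sod1, on chromosome 16 (90220754 to 90226329, plus strand), was the second highest gene at 187 and 183 TPM (185 ± 3.15, SD, n = 2). Its mitochondrial counterpart Sod2 stood at 99.1 and 97.5 TPM and the secreted Sod3 at 4.33 and 2.74 TPM. Sod1 exceeded Sod2 by 0.91 ± 0.01 on the log2 scale of TPM, which is 1.88-fold. By reads the order was the other way round, with 2016 and 2093 counts for Sod1 against 5047 and 5760 for Sod2, since Sod1-201 is only 641 bases long. Ccs, the chaperone that loads copper onto Sod1, stood at 15.8 and 19.8 TPM, or 10.5-fold below Sod1 (log2 ratio 3.39 ± 0.26). Sod1 shares 22 stretches of 101 bases with the processed pseudogene Gm8566 on chromosome 6, which held 8.4 and 6.98 counts.

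Tardbp, on chromosome 4 (148612382 to 148627019, minus strand), stood at 85.9 and 92.7 TPM (89.3 ± 4.81, SD, n = 2). It was lower than some of the other genes for RNA-binding proteins tied to ALS or frontotemporal dementia. Matr3, a nuclear matrix protein, reached 244 ± 15.7 and Hnrnpa2b1 223 ± 0.445 TPM. The lowest of the 10 other genes of that list was Ang, which encodes the ribonuclease angiogenin, at 4.89 ± 0.403 TPM. All 17 genes of the second ALS and frontotemporal dementia list, which covers protein clearance, transport and mitochondria, also reached a TPM of 1 in each library. Kif5a, a motor of axonal transport, led it at 368 ± 10.5 TPM, ahead of the autophagy receptor Sqstm1 at 209 ± 3.51 and the tubulin Tuba4a at 202 ± 28.9 TPM. The lowest in it were Optn, another autophagy receptor, at 8.85 ± 0.792 and Spg11 at 8.5 ± 0.141 TPM.

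The Parkinson genes Park7 and Lrrk2 lay at different levels. Park7, on chromosome 4 (150897133 to 150914437, minus strand), had 102 and 110 TPM (106 ± 5.42, SD, n = 2), and Lrrk2, on chromosome 15 (91673175 to 91816120, plus strand), had 10.6 and 9.34 TPM (9.97 ± 0.891). Lrrk2 was the lowest of the 8 genes in both libraries and the only one below the median of detected protein-coding genes. Park7 lay close to Pink1, the kinase that marks damaged mitochondria, at 124 and 118 TPM. The highest genes of the Parkinson list were Uchl1, a ubiquitin hydrolase of neurons, at 350 and 399 TPM, the synuclein Sncb at 266 and 318 TPM and Chchd2 at 179 ± 5.72 TPM. The lowest were the synuclein Sncg at 2.86 ± 0.615 and Gch1, which makes a cofactor of dopamine synthesis, at 0.51 ± 0.0566 TPM.

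The Rab substrates of Lrrk2 ranged widely. Rab3a, a GTPase of synaptic vesicles, reached 291 and 341 TPM and Rab10 60.4 ± 2.24 TPM (SD, n = 2), while Rab29, which recruits Lrrk2 to membranes, stood at 3.95 and 4.96 TPM. Vps35, the retromer subunit mutated in familial Parkinson disease, stood at 52.2 ± 4.83 TPM. The paralog Lrrk1 was lower than Lrrk2, at 3.35 and 2.80 TPM, a log2 ratio of Lrrk1 over Lrrk2 of -1.70 ± 0.05.

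Htt, on chromosome 5 (34761740 to 34912534, plus strand), had 32.8 and 34.1 TPM (33.4 ± 0.898, SD, n = 2). It held the second largest number of reads of the 8 genes, 6104 and 6716 counts, but was the seventh by TPM, since its coding transcript Htt-201 is 13215 bases long. Among genes for proteins that bind huntingtin, Pacsin1, an endocytic adaptor, stood at 139 ± 7.01 TPM, Hap1, a transport adaptor, at 101 and 78.4 TPM and Zdhhc17, a palmitoyltransferase, at 45.4 ± 3.88 TPM. F8a, whose product binds huntingtin directly, stood at 5.9 ± 0.240 TPM and Rest, a repressor of neuronal genes, at 2.72 ± 0.212 TPM. Among the other genes of polyglutamine disease, Atxn2 (97.0 ± 6.36), the calcium channel gene Cacna1a (85.9 ± 4.55) and Atn1 (68.7 ± 2.36 TPM) lay above Htt, and Atxn3 (9.56 ± 0.318 TPM) below it. In the order by TPM of all 8 genes, neighbours differed by more than their spread except for Tmem106b and Grn. For Park7 and Tardbp the authors' posterior intervals also overlapped in both libraries, although Park7 was the higher in each.

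**Figure D1:**
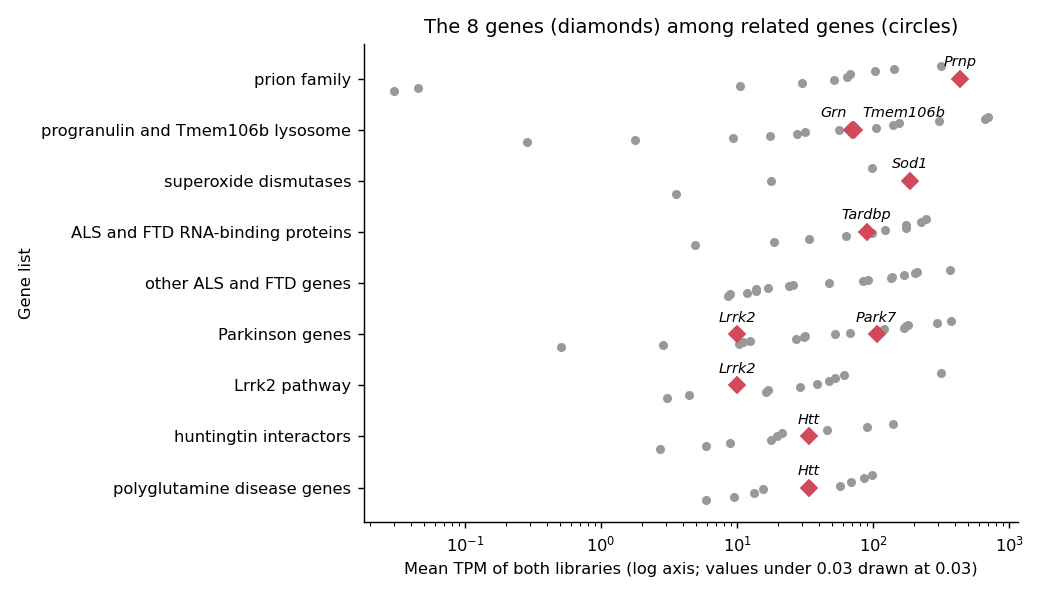
Mean TPM of both libraries (log axis) for the 8 genes (diamonds) and the other genes (circles) of 9 lists of related genes. Prnp and Sod1 are the highest genes of their lists, while Lrrk2 at 9.97 TPM lies near the low end of both lists that hold it.

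The share of TPM held by transcripts annotated as coding differed between the genes. In this annotation each gene has coding transcripts and, next to them, transcripts that keep an intron, that are marked for nonsense-mediated decay (a pathway that destroys messages with an early stop) or that are processed without a reading frame. For Prnp, Tmem106b, Park7, Grn and Sod1 together, transcripts other than coding ones held between 0.433 ± 0.225% (Prnp) and 7.85 ± 0.886% (Grn) of TPM (SD, n = 2). They held 27.9 ± 0.519% in Htt, 40.4 ± 6.63% in Lrrk2 and 52.2 ± 0.226% in Tardbp. By counts the order was another, with 24.4 ± 0.250% outside the coding class in Tardbp, 9.97 ± 0.300% in Sod1, 7.45 ± 0.127% in Htt and 7.18 ± 2.53% in Lrrk2. Over protein-coding genes with several transcripts and TPM of at least 10, the median share of TPM was 16.4% in replicate 1 and 16.0% in replicate 2. By this share of TPM, Tardbp lay at the 88.9 and 89.3 percentiles of these genes. Their median share of counts was 6.79% in replicate 1 and 6.61% in replicate 2.

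**Figure D2:**
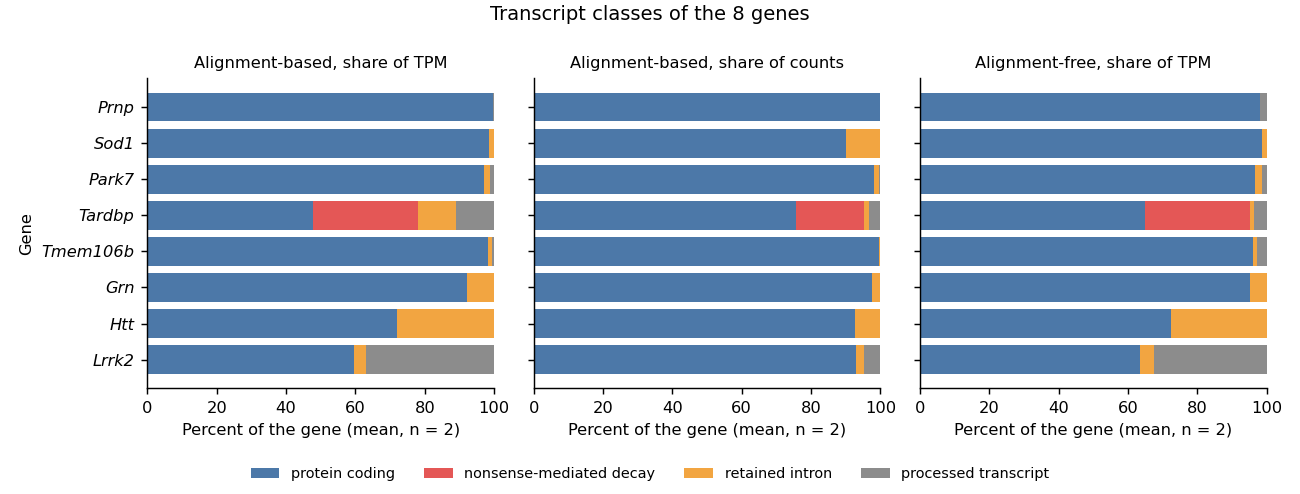
Share of each gene held by 4 classes of transcript, as the mean of both libraries (n = 2), by TPM and by counts in the alignment-based table and by TPM in the alignment-free table. Tardbp and Lrrk2 have the largest parts outside the coding class by TPM, at 52.2% and 40.4%, and Lrrk2 has only 7.18% outside it by counts.

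Tardbp had the most complex pattern. Of its 30 annotated transcripts, 10 had reads in both libraries and 16 had none in either library in the alignment-based table. By reads, Tardbp-202, the 7477-base transcript with the longest coding part, led with 2103 and 2054 counts, or 58.5 ± 2.60% of the gene (SD, n = 2). By TPM it held 18.3% and 15.5%, close to Tardbp-228, a 1411-base transcript marked for nonsense-mediated decay, at 21.1% and 13.8%. Tardbp-228 was the leader by TPM in replicate 1 and Tardbp-202 in replicate 2. All transcripts of that class together held 30.3 ± 2.87% of Tardbp TPM and 19.7 ± 0.352% of its counts.

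Other Tardbp transcripts named by the rule of 5% held smaller shares. The coding Tardbp-214 (12.96 ± 0.361% of TPM) and Tardbp-204 (12.8 ± 0.481%) came next, followed by the processed Tardbp-220 (10.97 ± 0.431%), the intron-retaining Tardbp-225 (10.9 ± 3.09%) and Tardbp-201 of the decay class (6.82 ± 0.530%). Tardbp-214 is annotated as coding but has only 57 coding bases, against 1242 in Tardbp-202. The coding share of Tardbp is therefore not a share of messages for the whole TDP-43 protein. In the alignment-free table Tardbp-225 fell to 1.15 ± 1.63% and Tardbp-220 to 3.66 ± 2.18%, while Tardbp-214 stood at 20.8 ± 2.23% and led the gene in both libraries. The further transcripts Tardbp-208, Tardbp-211 and Tardbp-205 passed 5% only there, at 7.36 ± 0.887%, 9.49 ± 0.366% and 5.63 ± 2.47%.

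The coding transcript of Lrrk2 held most reads but a smaller and less stable share of TPM. Lrrk2-201, of 8275 bases, had 1010 and 812 counts, 92.8 ± 2.53% of the gene (SD, n = 2), but 64.2% of TPM in replicate 1 and 54.9% in replicate 2. The processed Lrrk2-205, of only 438 bases, had 19.2 and 22.01 counts and took 29.5% and 36.0% of TPM. In the alignment-free table the same transcript had 3.62 and 22.9 counts, and its share of TPM moved from 9.58% to 45.4% between the libraries. The share of Lrrk2-201 there was 79.8% in replicate 1 and 47.2% in replicate 2. Lrrk2-204, another processed transcript, held 5.02 ± 1.08% of TPM there and 3.29 ± 2.69% in the alignment-based table. Taken alone, Lrrk2-201 stood at 6.81 and 5.13 TPM, so the gene value was 1.69 ± 0.187 times that of its only coding transcript.

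Sod1 showed the opposite of Lrrk2. Its intron-retaining transcript Sod1-202, of 3970 bases, took 9.97 ± 0.300% of the gene's counts but 1.52 ± 0.0495% of its TPM (SD, n = 2), since it is much longer than Sod1-201. In Htt, 7 of the 8 annotated transcripts retain an intron, and they took 7.45 ± 0.127% of counts and 27.9 ± 0.516% of TPM. Htt-204 and Htt-205 were the highest of them, at 11.1 ± 1.34% and 6.24 ± 0.721% of TPM. Htt-201 itself had 67 exons and held 72.1 ± 0.516% of TPM, and 72.4 ± 0.433% when quantified without alignment.

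Tmem106b-201, the transcript of Tmem106b with the longest coding part, held 91.7 ± 0.191% of reads but 47.8 ± 0.686% of TPM (SD, n = 2). The rest of the gene's TPM lay almost wholly in the shorter coding transcripts Tmem106b-202 (24.9 ± 0.834%), Tmem106b-203 (19.8 ± 0.311%) and Tmem106b-205 (5.64 ± 0.389%), of 723, 425 and 507 bases against 6002 for Tmem106b-201. In Grn, Grn-201 held 89.3 ± 0.403% of TPM. Genes on the other strand overlap the ends of Grn (Fam171a2, 1567 and 1850 counts) and of Sod1 (Scaf4, 1214 and 1423 counts), and whether the counting used strand is not stated, so reads of the shared ends cannot be told apart.

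In Park7 the tables divided the same coding sequence differently. Park7-201 and Park7-204 have the same coding blocks of 567 bases and differ outside them. In the alignment-based table Park7-201 held 90.1% and 89.7% of TPM and Park7-204 3.18% and 5.03%. In the alignment-free table Park7-201 held 66.8% and 56.4% and Park7-204 23.3% and 35.3%. The summed coding share of Park7 was 97.0 ± 0.530% in the first and 96.5 ± 1.42% in the second table (SD, n = 2).

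**Figure D3:**
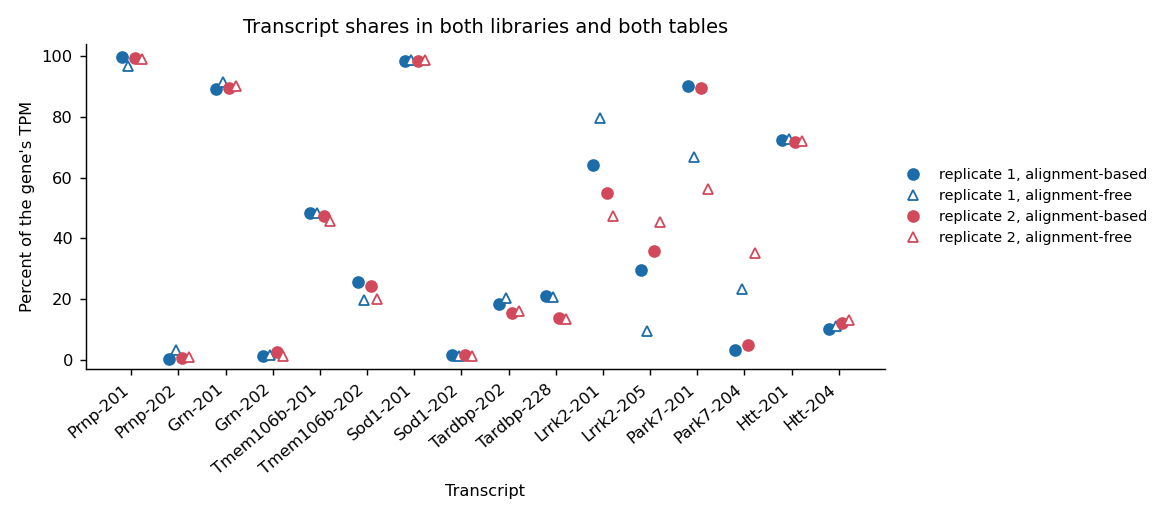
Percent of the gene's TPM held by the 2 transcripts of each gene with the highest mean share over both tables, in each library, from the alignment-based (circles) and the alignment-free table (triangles). The shares of Htt-201, Tmem106b-201 and Grn-201 nearly coincide, while those of Lrrk2-201, Lrrk2-205, Park7-201 and Park7-204 lie far apart.

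The leading transcript by TPM was the same in both tables and both libraries for 7 of the 8 genes, and Tardbp was the exception. Over genes with several transcripts and TPM of at least 10 the tables shared the leader for 80.5% of genes in replicate 1 and 81.3% in replicate 2 (78.6% and 79.6% over genes of TPM 1 and more). By counts instead of TPM, all 8 genes had the same leader in both tables. At the level of whole genes the tables were close. The alignment-free count was between 1.09 ± 0.00473 (Prnp) and 1.17 ± 0.00952 (Tmem106b) times the alignment-based count (SD, n = 2). Over the protein-coding genes of 500 counts and more, Prnp lay at the 11.2 and 9.19 percentiles of this ratio and Tmem106b at the 76.6 and 68.0 percentiles.

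When only the leading coding transcript of each gene was counted, the order of the genes changed. Prnp, Sod1, Park7, Tmem106b and Lrrk2 kept their places, at 432 ± 23.1, 182 ± 3.01, 95.2 ± 4.56, 34.2 ± 2.88 and 5.97 ± 1.19 TPM (SD, n = 2). Tardbp went from the fourth to the seventh place, at 15.0 ± 0.948 TPM for Tardbp-202, and its gene value was 5.96 ± 0.695 times this. Grn-201 (62.4 ± 2.90 TPM) stood above Tmem106b-201, which in turn stood above Htt-201 (24.1 ± 0.474 TPM).

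**Figure D4:**
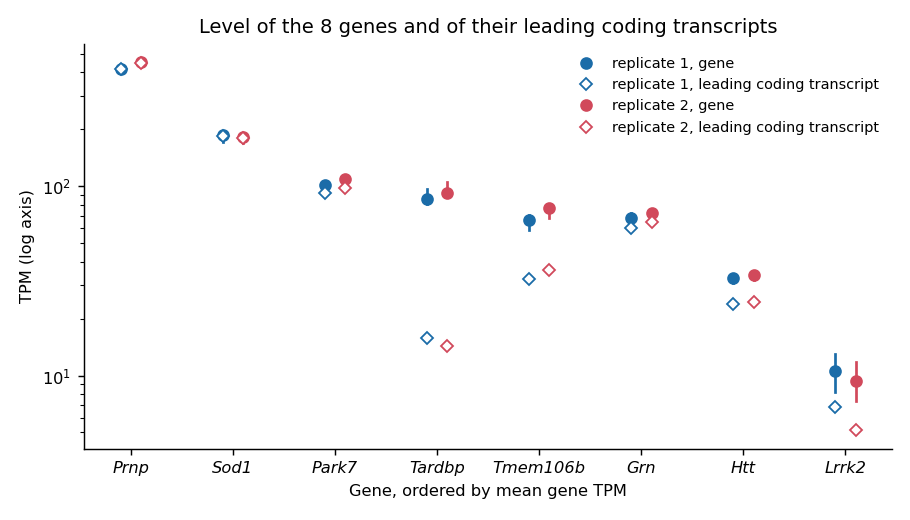
TPM (log axis) of each gene (filled circles) and of its leading coding transcript (open diamonds) in both libraries. Vertical lines are the authors' interval for the posterior TPM, which for Prnp lies below the deposited TPM, and the gap between circle and diamond is widest for Tardbp (89.3 against 15.0 TPM on average).

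The libraries differed little in the level of these genes. None of the 8 genes was more than 2-fold apart, against 2.00% of the 16971 genes that passed a minimum of 20 on the mean expected count (1.54% higher in replicate 1 and 0.465% higher in replicate 2). All 8 passed that minimum. The log2 ratio of replicate 2 over replicate 1, scaled by TMM, had a median size of 0.07 over the 8 genes and 0.12 over all tested genes. These comparisons were not matched on count. The lowest of the 8, Lrrk2, held 1068 and 892 counts, while tested genes went down to a mean of 20. Whether the 8 genes differed less than genes of similar count was not tested. By an exact conditional binomial test of the counts, two-sided with Benjamini-Hochberg adjustment over all tested genes, 3 of the 8 had an adjusted p under 0.05, against 18.0% of all tested genes. The test compares these libraries against counting error alone and says nothing of conditions. Of the 3, 1 was higher in replicate 1 (8.89% of all tested genes) and 2 were higher in replicate 2 (9.07%).

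Lrrk2 had the largest scaled count ratio of the 8 genes under TMM, but not in the ratio of deposited TPM (-0.18, against 0.20 for Tmem106b) nor with spike-in scaling. It had 1068 counts (40.9 CPM) in replicate 1 and 892 counts (31.1 CPM) in replicate 2, a log2 ratio of -0.39 with an adjusted p of 8.89e-08 in the exact binomial test. The size of that ratio lay at the 86.5 percentile of all tested genes. The striatal markers were also higher in replicate 1 (8 of 8, summed 173 against 66.0 TPM), as were the choroid plexus markers (8 of 8) and, by scaled counts, the endothelial markers (6 of 6, of which 3 passed the test). By TPM 2 of these endothelial markers, Slco1a4 and Flt1, were higher in replicate 2. By TMM-scaled counts 8 of 8 microglial, 6 of 6 oligodendrocyte and 4 of 6 astrocyte markers were higher in replicate 1 too. These ratios were smaller in size than the shift of 0.27 with spike-in scaling, so their direction depends on the scaling. The other 2 astrocyte markers and all 8 markers of excitatory hippocampal neurons were higher in replicate 2. The part of any of these markers in the Lrrk2 value was not tested. Scaled by the added spike-in RNAs, which move the median log2 ratio of all genes to 0.27, the ratio of Lrrk2 was -0.12 with an adjusted p of 0.105 in the exact binomial test. Hap1, the partner of huntingtin, had a log2 ratio of the same size, -0.39 (adjusted p of 1.63e-35 in the exact binomial test), while that of Htt was 0.01.

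Prnp and Tmem106b were higher in replicate 2 beyond counting error. With spike-in scaling 7 of the 8 genes were, against 58.8% of all tested genes past the exact test in either direction. There Sod1 and Tardbp turned from lower to higher. Prnp had a log2 ratio of 0.08, with an adjusted p of 2.45e-05 in the exact binomial test. Tmem106b had one of 0.14, with an adjusted p of 0.000127 in that exact test. All 8 markers of excitatory hippocampal neurons were higher in replicate 2 as well, with summed levels of 2485 and 2981 TPM, and their part in these values was not tested. For the other 5 genes the log2 ratios were 0.08 for Park7, 0.06 for Grn, 0.01 for Htt, -0.07 for Tardbp and -0.07 for Sod1, with adjusted p between 0.139 and 0.879 in the exact binomial test. For Tardbp the scale decided the direction: CPM, which takes no account of length, was 133 in replicate 1 and 126 in replicate 2, while TPM was 85.9 and 92.7. The mean length of its transcripts was estimated at 2337 bases in replicate 1 and 2118 bases in replicate 2.

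**Figure D5:**
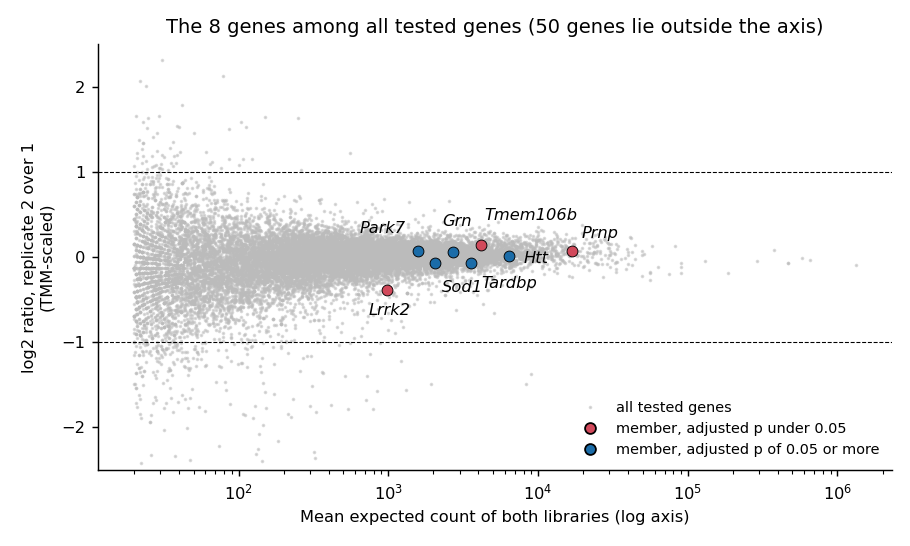
Mean expected count (log axis) against the TMM-scaled log2 ratio of replicate 2 over replicate 1 for the tested genes (grey) and the 8 genes, with dashed lines at 2-fold. Of the 16971 tested genes, 50 lie beyond the axis limit of 2.5 in either direction and are not shown. All 8 lie between the lines, and Lrrk2 at -0.39 is the furthest from 0.

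Among the related genes that passed the count minimum, which Prn, Prnd and Slpi did not, none in the 9 lists was more than 2-fold apart. Of all tested genes, only 2.00% were. In the Parkinson list, 6 of the 17 other genes tested were higher in replicate 2 by the exact binomial test at an adjusted p under 0.05 and none was higher in replicate 1, against 9.07% and 8.89% of all tested genes. The 8 markers of excitatory neurons, all higher in replicate 2, moved the same way, and their part was not tested. The median log2 ratio of that list was 0.09, against -0.00 for all tested genes. They included Sncb at 266 and 318 TPM and the presynaptic phosphatase gene Synj1 at 163 and 184 TPM. In the lysosomal list, 5 of the 12 other genes tested were higher in replicate 1 and 1, Sort1, in replicate 2, against 8.89% and 9.07% of all tested genes. By TMM-scaled counts 8 of 8 microglial markers (3 past the test) and 6 of 6 oligodendrocyte markers (2 past the test) were also higher in replicate 1, and their part in these values was not tested. The directions of these 5 lysosomal genes and of these markers depend on the scaling. Their largest ratio, -0.20 for Ctsl, is smaller in size than the shift of 0.27 with spike-in scaling. The lists were not tested with spike-in scaling. Of the superoxide dismutase genes, Sod3 alone passed that exact test, with a log2 ratio of -0.69 and an adjusted p of 4.69e-06.

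The remaining lists were read in the same exact test with TMM scaling, at an adjusted p under 0.05. Of all tested genes, 9.07% were higher in replicate 2 and 8.89% were higher in replicate 1. In the prion list 2 of the 8 other genes tested were higher in replicate 2, and likewise 2 of 10 RNA-binding protein genes and 3 of 8 polyglutamine genes, with none higher in replicate 1. In the second ALS and frontotemporal dementia list 2 of 17 were higher in replicate 2 and 1 in replicate 1. Among the Lrrk2 pathway genes these numbers were 2 and 1 of 10, the latter being Rab8a, and among the huntingtin interactors 1 and 1 of 9. Median levels were 110 ± 6.74 TPM (SD, n = 2) for the RNA-binding proteins, 57.6 ± 4.64 for the prion list, 55.96 ± 2.74 for the lysosomal list, 52.2 ± 4.83 for the Parkinson list, 47.7 ± 2.48 for the second ALS list, 36.4 ± 1.13 for the polyglutamine list, 33.6 ± 2.37 for the Lrrk2 pathway, 17.8 ± 2.86 for the superoxide dismutase list and 19.6 ± 0.509 TPM for the huntingtin interactors.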

How the data were processed

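Total RNA, depleted of ribosomal RNA per the name of the spike-in profile in the labels, was sequenced from 2 libraries. Alignment-based gene and transcript tables and an alignment-free transcript table were deposited for each, on mm10 with GENCODE M21, per notes that accompany the deposited tables. For the aligner and for the programs that quantified the reads, the labels and these notes name none. Expected counts deposited by the authors are estimates of reads and need not be whole. TPM and FPKM were computed by the authors and take transcript length and depth into account. The deposited percent column gives each transcript's share of its gene's TPM. The deposited interval bounds of TPM, treated as a signal, have no stated level. Alignment-free values were summed per gene.

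Expected counts were rounded to whole numbers before TMM factors were taken from edgeR 4.0.16 in R 4.3.3 and before the exact test. Ratios used a prior count of 0.5. With 1 group no test between conditions was possible. The exact test was tried on simulated counts that vary by counting error alone. That cannot show how the test behaves where libraries differ by more than counting error. Stretches of 101 bases, a size taken from the difference between transcript length and effective length (100), were compared between transcripts. Python (version 3.11.15), scipy (1.17.1) and matplotlib (3.10.9) did the rest. The 8 genes and all lists were chosen with earlier results of these data known. Named were the 8 genes, their transcripts with at least 5% of TPM in either table, the 3 highest and 2 lowest other genes of each of 9 lists, the paralogs, and some further list genes chosen after their values were seen. Some genes that this rule covers are not reported here. Alternatives covered other scalings, among them DESeq2 (version 1.42.0), count minimums, prior counts, units and tables.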

Additional observations from a re-analysis of the deposited data

How the results depend on the processing

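The members past the exact test numbered 3 under TMM, DESeq2 size factors, library size, alignment-free counts and count minimums of 1 and 100. With spike-in scaling, which shifts the log2 ratio of all genes by 0.27, they numbered 7. Of all tested genes, 58.8% passed with spike-in scaling and 11.6% with the count minimum of 1. In the other settings between 17.5% (library size) and 21.6% (count minimum of 100) passed. With spike-in scaling Sod1 (0.19) and Tardbp (0.19) changed direction. Tardbp also did so in the ratio of deposited TPM (0.11), and Htt in alignment-free counts (-0.00130). None of the 8 was more than 2-fold apart under any scaling. Few of the 16971 tested genes were, between 326 (spike-in scaling) and 349 (library size), so this says little about the 8. The median of the 8 genes, 80.7 TPM, was 74.5 in alignment-free TPM and 55.3 in FPKM, a different unit, and lay between 76.8 and 84.7 when a replicate was left out. Without length scaling the log2 ratio of Sod1 over Sod2 was -1.39 and that of Htt over Hap1 0.49, both reversed, and in alignment-free TPM Park7 over Pink1 was 0.12, reversed from -0.19. Leaving out a replicate left 7 genes with the same leading transcript. It was not possible for ratios between the libraries. No paired analysis was possible because there is only 1 group. The share of TPM that Lrrk2-205 took rests on 19.2 and 22.01 counts. The values of the leading coding transcripts alone, the shares by counts and the shared leading transcripts at a TPM of 1 were alternatives chosen after seeing the data. The causes of these changes were not tested.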
